A study of Ovis aries with 6 samples.

Results

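The genes described here are the 2 thyroid hormone receptors (THRA and THRB), the 3 retinoid X receptors that pair with them (RXRA, RXRB and RXRG), the corepressor NCOR1 and the p160 coactivators NCOA1, NCOA2 and NCOA3. They were taken by symbol from a table of raw read counts, in which each of the 9 symbols had 1 row among 33609 genes listed. All 9 were among the 18019 genes with enough counts to be tested, RXRG through the pools in which it was higher. The counts come from polyA RNA of the choroid plexus, the tissue that secretes cerebrospinal fluid, of ewes. Short denotes control ewes kept in short days, Long denotes control ewes kept in long days, and THX denotes thyroidectomised ewes, whose thyroid gland had been removed, kept in long days. Each group had 8 ewes, or 7 in THX, and was sequenced as 2 pools of RNA from 3 to 4 ewes each. The study's text gives 24 ewes in all, 1 more than these group sizes add up to. The labels read here do not mention age, breed or sham surgery of the control ewes.

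Thyroid hormone receptors are nuclear receptors that sit on DNA with or without their hormone, usually as a pair with a retinoid X receptor. Without hormone the pair holds a corepressor complex built on a scaffold such as NCOR1, which recruits a histone deacetylase and keeps target genes low. Hormone binding releases that complex and brings in p160 coactivators, which carry histone acetyltransferases to the gene. Hormone binding also brings in the Mediator complex, whose subunit MED1 contacts the hormone-bound receptor. Thyroid hormone reaches the cerebrospinal fluid in part through the choroid plexus, whose epithelium secretes the carrier transthyretin (TTR). In sheep, thyroid hormone takes part in the seasonal timing of reproduction.

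Total counts ran from 48282883 to 82100653 per pool. Levels are given as CPM, counts scaled to 1e6 of a library total scaled by TMM factors. Of 12 choroid plexus epithelium markers 11 were matched, and their summed level ran from 94000 to 99700 CPM in Short, 114000 to 116000 CPM in Long and 125000 to 147000 CPM in THX pools, mostly TTR. The mean centred log2 level of the 11 ran the other way, at 0.17 and 0.10 in Short, −0.02 in both Long and −0.08 and −0.14 in THX pools. From Short to Long to THX the group means of KCNJ13 were 958, 879 and 700 CPM, of KL 1190, 936 and 661 CPM, of ENPP2 3590, 3420 and 2760 CPM, of SLC4A5 252, 169 and 156 CPM and of HTR2C 69.9, 44.2 and 26.7 CPM. Those of CLIC6 were 660, 700 and 873 CPM and of FOLR1 337, 418 and 420 CPM. OTX2 (74.7, 75.4 and 72.7 CPM), AQP1 (156, 136 and 152 CPM) and CLDN1 (32.2, 24.3 and 31.3 CPM) neither rose nor fell throughout. Every one of the 11 had at least 23.2 CPM in each pool. On the first principal component of all tested genes Short pool 1 lay at −38.4 and THX pool 2 at 42.7, with the other 4 pools between −18.7 and 8.6, and on the second THX pool 1 lay alone at −47.8. HR and KLF9, targets of the receptor, checked the thyroidectomy label: HR was at 3.36 and 2.76 CPM in THX pools and between 23.4 and 25.6 CPM in the other 4. KLF9 was at 36.1 and 34.1 CPM in THX pools and at 88.3 CPM or more elsewhere.

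THRA encodes the alpha receptor, which is made both as a form that binds hormone and as a splice form that does not, and counts per gene do not separate these. It had 175 and 189 CPM in Short pools, 197 and 191 CPM in Long pools and 224 and 235 CPM in THX pools. Both THX pools lay above the other 4, and both Long pools lay narrowly above both Short pools. THRA was 1.19 times as high in THX as in Long (log2 difference 0.25, SE 0.075, 95% interval 0.07 to 0.42), which did not pass over all genes by edgeR's quasi-likelihood test (adjusted p = 0.365). Against Short the log2 difference was 0.34 (SE 0.0749, adjusted p = 0.0841), and between Long and Short it was 0.09 (SE 0.075, adjusted p = 0.575). In the sheep reference assembly ARS-UI_Ramb_v3.0 the locus of THRA overlaps that of NR1D1, a clock repressor gene, and no strand setting of the counting is known, so reads from the shared stretch cannot be told apart. NR1D1 had 9.28 to 12 counts for each 100 of THRA. Its levels were 16.2 and 21.5 CPM in Short, 18.7 and 22.3 CPM in Long and 22.7 and 28.2 CPM in THX pools, also highest in THX, with a log2 difference to Long of 0.31 (SE 0.175, adjusted p = 0.698).

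Markers of fibroblasts and leptomeninges, its coverings and connective tissue, were lowest in both THX pools, where THRA was highest. All 7 were matched, with DPT at most at 0.0528 CPM, and their summed level was 441 and 582 CPM in THX pools, 657 to 846 CPM in Short and 735 to 806 CPM in Long pools. The summed level of pericyte and smooth muscle markers was also lowest in THX, at 845 to 991 CPM against 996 to 1340 CPM in the other pools. Their mean centred log2 level overlapped, at −0.266 and −0.043 in THX and −0.003 and −0.047 in Long pools. Markers of oligodendrocytes were lowest in THX too, at 61.6 to 65.7 against 68.7 to 90.1 CPM, and so were those of lymphocytes, at 22.2 to 22.6 against 26.6 to 29.9 CPM. The summed level of 7 markers of ependyma and cilia was highest in THX, at 618 and 689 CPM, against 503 to 570 CPM in Long and 496 to 512 CPM in Short pools. Most of that sum was FOXJ1, at 464, 358 and 331 CPM on average, while PIFO was highest in Long and DNAH9 in Short. In RNA of whole tissue fewer cells of a type and less RNA per cell cannot be told apart, and the part of these markers in the levels of the receptors was not tested. Neuron markers were at 331 to 339 CPM in THX and 293 to 315 CPM in the other pools, mostly SNAP25. The mean centred log2 level of the 6 neuron markers overlapped, at 0.175 and −0.324 in THX and −0.225 to 0.222 in the other pools. Macrophage markers were at 152 to 158 CPM in Long and 125 to 143 CPM in the others. Those of endothelium, at 627 to 761 CPM, and of astrocytes, at 73.9 to 103 CPM, overlapped between THX and the rest.

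THRB encodes the beta receptor, and it varied more between pools than the alpha gene did. It had 24.9 and 19.6 CPM in Short pools, 13.4 and 13.5 CPM in Long pools and 16.6 and 12.4 CPM in THX pools, from 734 to 2108 counts. Both Short pools lay above all others, while the THX pools lay on either side of the Long pools. The coefficient of variation over the 6 pools was 28.8% for THRB and 11.5% for THRA, against a median of 12.9% for all tested genes. THRB was 1.66 times as high in Short as in Long (log2 difference of Long to Short −0.73, SE 0.174, 95% interval −1.14 to −0.32), and this did not pass by edgeR (adjusted p = 0.342). Thyroidectomy at long days gave a log2 difference of 0.11 (SE 0.175, adjusted p = 0.959), with a 95% interval of −0.31 to 0.52. The log2 difference of THX to Short was −0.62 (SE 0.174, adjusted p = 0.122).

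**Figure D1:**
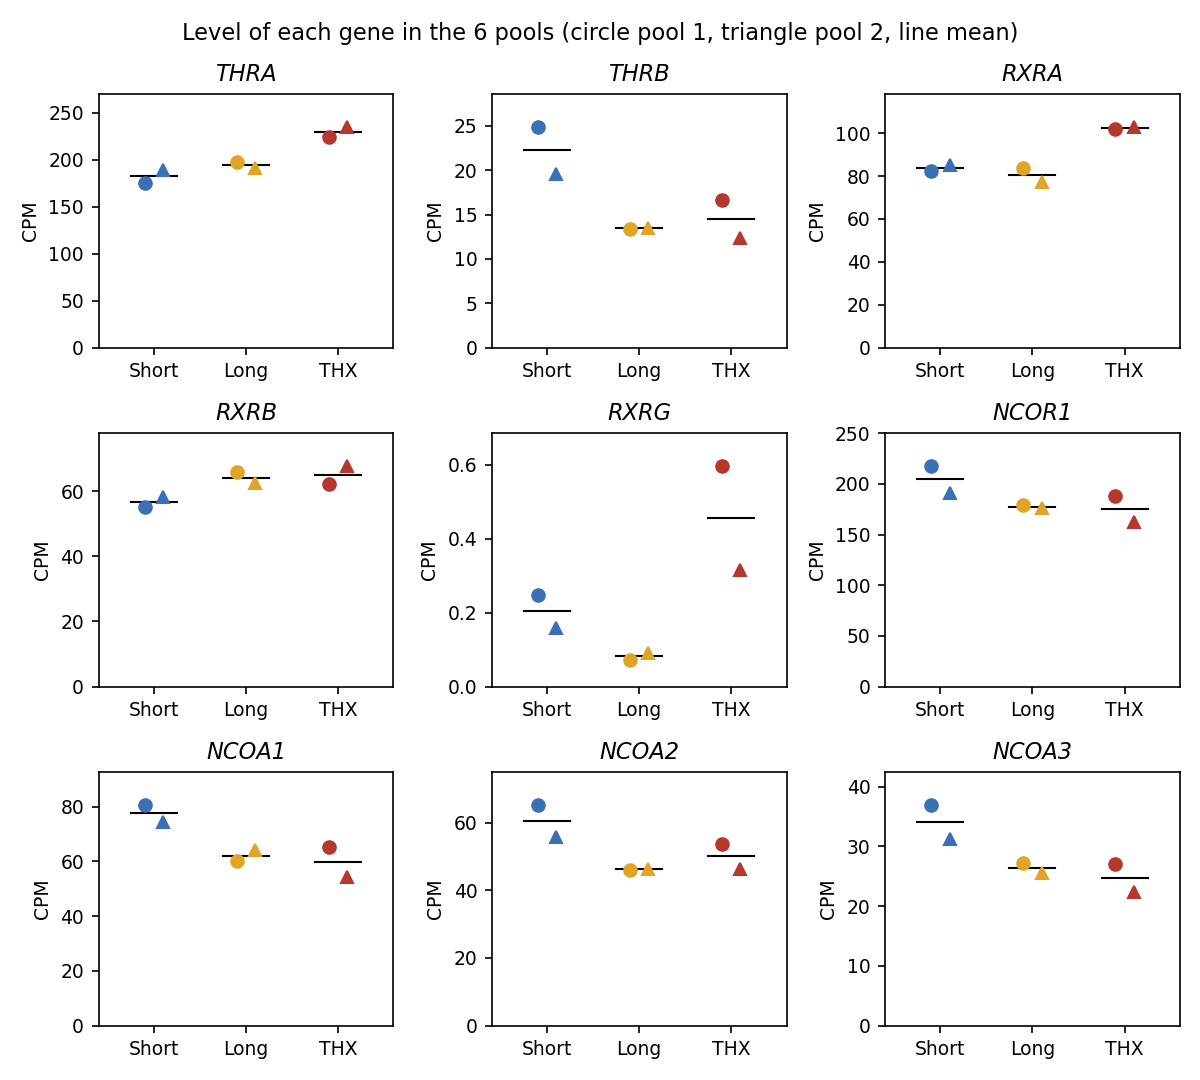
CPM (vertical axes, from 0) of each of the 9 genes in the 2 pools of the Short, Long and THX groups, with a line at the group mean. Both THX pools are highest for THRA and RXRA, and both Short pools are highest for THRB, NCOR1 and the 3 NCOA genes. RXRG, at 4 to 34 counts per pool, was tested through its higher pools, so its order supports no difference between groups.

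RXRA encodes the alpha retinoid X receptor, a partner shared by many nuclear receptors. It had 82.1 and 84.9 CPM in Short pools, 83.8 and 77 CPM in Long pools and 102 and 103 CPM in THX pools. The Short and Long pools overlapped, and both THX pools lay above them. RXRA was 1.27 times as high in THX as in Long (log2 difference 0.35, SE 0.076, 95% interval 0.17 to 0.53, adjusted p = 0.201 by edgeR) and 1.23 times as high in THX as in Short (log2 difference 0.29, SE 0.0759, adjusted p = 0.108), and neither passed. Between Long and Short the log2 difference was −0.05 (SE 0.076, 95% interval −0.23 to 0.13, adjusted p = 0.762). DESeq2 called both comparisons with THX (adjusted p = 0.00974 and 0.0151), where it called 2.49% and 9.77% of all tested genes. By limma-voom neither was called.

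RXRB, the beta partner, had the narrowest range of the 9 genes, its highest pool being 1.23 times its lowest. It had 55.2 and 58.3 CPM in Short pools, 65.7 and 62.4 CPM in Long pools and 62.3 and 67.8 CPM in THX pools. Both Short pools were lowest, and the Long and THX pools overlapped. The log2 difference was 0.18 between Long and Short (SE 0.0815, adjusted p = 0.379), 0.20 between THX and Short (SE 0.0814, adjusted p = 0.213) and 0.02 between THX and Long (SE 0.0814, 95% interval −0.17 to 0.22, adjusted p = 0.987).

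RXRG, the gamma partner, was near the limit of detection. It had 21 and 8 counts in Short pools, 4 and 5 in Long pools and 34 and 21 in THX pools, or at most 0.598 CPM. The 3 groups did not overlap in CPM, with Long lowest and THX highest. Because RXRG was tested through its higher pools, neither this order nor the tests that follow support a difference between groups. The log2 difference of THX to Long was 2.45 (SE 0.617, 95% interval 0.99 to 3.91, adjusted p = 0.234), and those of Long to Short and THX to Short were −1.33 and 1.12 (adjusted p = 0.378 and 0.243). None of these passed, and the intervals are wide because the counts are few.

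NCOR1 encodes the large scaffold of the corepressor complex. It had 218 and 191 CPM in Short pools, 179 and 176 CPM in Long pools and 188 and 162 CPM in THX pools. Both Short pools were highest, and the THX pools lay on either side of the Long pools. The log2 difference of Long to Short was −0.21 (SE 0.1, adjusted p = 0.39 by edgeR), that of THX to Short was −0.23 (SE 0.1, adjusted p = 0.238) and that of THX to Long was −0.02 (SE 0.1, 95% interval −0.26 to 0.22, adjusted p = 0.99). In the reference assembly NCOR1 overlaps the loci of PIGL and CENPV, which had 991 to 1729 and 264 to 474 counts per pool against 9566 to 18452 for NCOR1.

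The 3 p160 coactivators bind the hormone-loaded receptor directly, and all were highest in Short pools. NCOA1 had 80.7 and 74.4 CPM in Short pools, 60.1 and 64.1 CPM in Long pools and 65.3 and 54.2 CPM in THX pools. NCOA2 had 65.3 and 55.6 CPM in Short pools, 45.9 and 46.4 CPM in Long pools and 53.6 and 46.4 CPM in THX pools. NCOA3 had 37 and 31.2 CPM in Short pools, 27.2 and 25.6 CPM in Long pools and 27.1 and 22.3 CPM in THX pools. For each of the 3 genes both Short pools lay above the other 4 pools, and the Long and THX pools overlapped. Both Long pools lay below both Short pools in 26.8% of all tested genes, and both THX pools did in 26.7%. The share of all genes with both Short pools above the other 4 was not counted. The log2 differences of Long to Short were −0.32 for NCOA1 (SE 0.107), −0.39 for NCOA2 (SE 0.108) and −0.37 for NCOA3 (SE 0.129), each with an adjusted p of 0.342 by edgeR. Those of THX to Short were −0.38 for NCOA1 (adjusted p = 0.125), −0.28 for NCOA2 (adjusted p = 0.196) and −0.47 for NCOA3 (adjusted p = 0.12). Between THX and Long the log2 differences of NCOA1, NCOA2 and NCOA3 were −0.06, 0.11 and −0.10 (adjusted p = 0.97, 0.88 and 0.938), with 95% intervals of −0.31 to 0.20, −0.14 to 0.37 and −0.40 to 0.21.

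At a constant day length, THX pools were set against Long pools to measure these genes with and without a thyroid. None of the 9 passed by edgeR, where 0.283% of all tested genes did. RXRG, tested because of its higher pools, is left out of the counts and medians that follow. THRA and RXRA had an unadjusted p under 0.05, where 9.08% of all tested genes had one, 4.16% with the higher level in THX. Among the 9, limma-voom called none, where it called 0.25% of all tested genes, and DESeq2 called RXRA, where it called 2.49%. Both THX pools lay above both Long pools for THRA and RXRA, a separation in that direction seen in 18.5% of all tested genes, and below them for none. The median log2 difference of the 8 was 0.066, with 5 above 0, and that of all tested genes was 0.001. Apart from RXRG, the 95% intervals, which are not adjusted for the number of genes, lay within log2 differences of −0.40 and 0.53.

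With the thyroid in place, Long pools were set against Short pools to compare the day lengths. None of the 9 passed by edgeR, where 0% of all tested genes did. THRB, NCOA1, NCOA2 and NCOA3 had an unadjusted p under 0.05, where 13.8% of all tested genes had one, 7.33% with the lower level in Long. Among the 9, limma-voom called none, where it called 0% of all tested genes, and DESeq2 called THRB (adjusted p = 0.0282), where it called 0.882% of all tested genes. The groups did not overlap in 7 of the 8 genes other than RXRG, against 53.5% of all tested genes. Of these, THRB, NCOR1 and the 3 NCOA genes were lower in Long, a direction seen in 26.8% of all tested genes, and THRA and RXRB were higher in Long, seen in 26.7%. The median log2 difference of the 8 was −0.26, with 6 below 0, and that of all tested genes was −0.003. The middle 50% of all tested genes lay between −0.19 and 0.16, and THRB, NCOR1 and the 3 NCOA genes lay below that range.

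The comparison of THX with Short pools differs in both day length and thyroid. None of the 9 passed by edgeR, where 0.916% of all tested genes did. An unadjusted p under 0.05 was found for 7 of the 8 genes other than RXRG, all but NCOR1, where 22.6% of all tested genes had one. DESeq2 called THRA, THRB, RXRA, NCOA1 and NCOA3 (adjusted p = 0.00214, 0.0182, 0.0151, 0.0309 and 0.0251), where it called 9.77% of all tested genes, and limma-voom called none of the 9, where it called 0.977%. The groups did not overlap in any of the 8, against 52.5% of all tested genes. THRA, RXRA and RXRB were higher in THX, a direction seen in 25.7% of all tested genes, and THRB, NCOR1 and the 3 NCOA genes were lower, seen in 26.7%. This comparison shares its pools with the other pair of comparisons, so its values are not separate evidence.

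**Figure D2:**
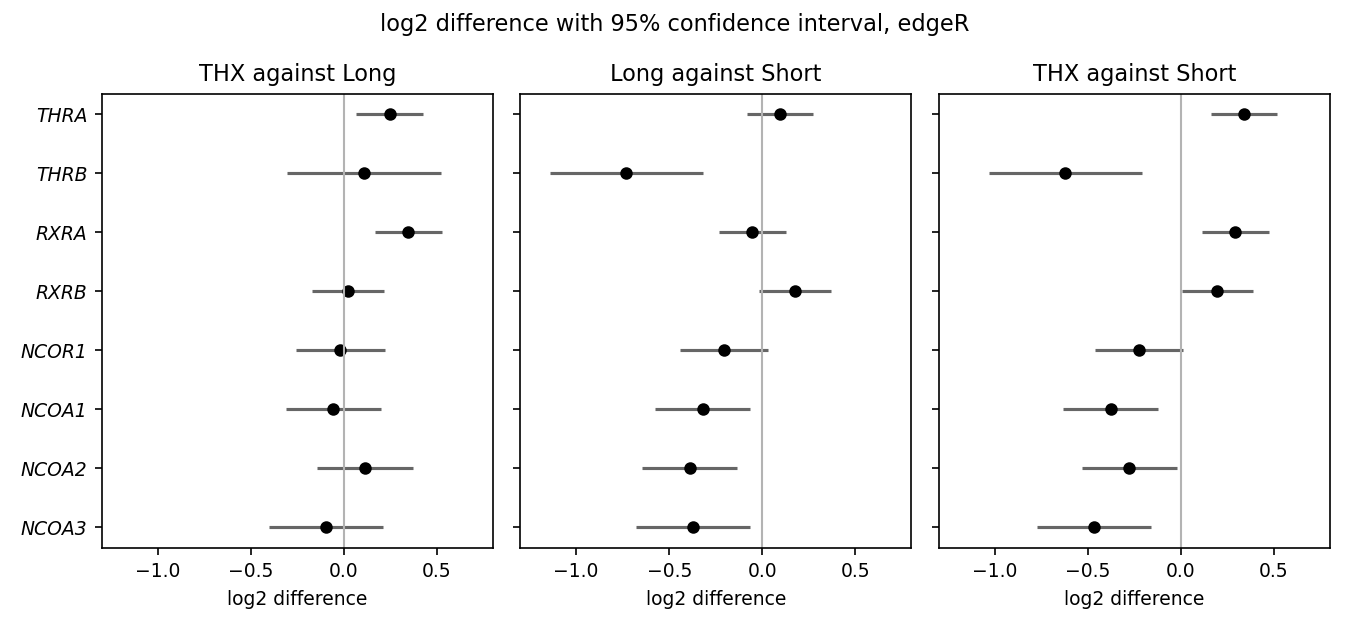
log2 difference (horizontal axes) with its 95% confidence interval for 8 of the 9 genes in each comparison, from edgeR fitted to all 6 pools. RXRG is left out for its few counts and wide intervals. In THX against Long only the intervals of THRA and RXRA lie wholly above 0, and in Long against Short those of THRB, NCOA1, NCOA2 and NCOA3 lie wholly below it.

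Ratios of counts within a pool do not depend on how libraries are scaled. The length of each gene cancels between pools only if length affects the counts alike in every pool, which was not tested. Such a ratio is also not a relative abundance of the 2 transcripts. THRB had 14.3 and 10.4 counts for each 100 of THRA in Short pools, 6.79 and 7.08 in Long pools and 7.41 and 5.26 in THX pools. Both Short pools lay above the other 4 in this balance of beta to alpha receptor, and the THX pools lay on either side of the Long pools. RXRB had 67.3 and 68.7 counts for each 100 of RXRA in Short pools, 78.4 and 81.1 in Long pools and 61.3 and 65.9 in THX pools. The balance of beta to alpha partner was highest in both Long pools and lowest in both THX pools, without overlap of any 2 groups. RXRA had 47 and 45 counts for each 100 of THRA in Short pools, 42.5 and 40.4 in Long pools and 45.3 and 43.7 in THX pools, with both Long pools lowest and the other groups overlapping.

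Among the coregulators, NCOR1 had 125 and 101 counts for each 100 of THRA in Short pools, 90.7 and 92.3 in Long pools and 83.8 and 69 in THX pools. The corepressor scaffold relative to the alpha receptor was highest in Short and lowest in THX, with no overlap between groups. The 3 p160 coactivators together had 83.9 and 84.3 counts for each 100 of NCOR1 in Short pools, 74.4 and 77.3 in Long pools and 77.6 and 75.6 in THX pools. This ratio of coactivator to corepressor was higher in both Short pools than in the other 4. The ratios are a description, and no model was fitted to them. How many ratios of other gene pairs separate the groups in this way was not counted. Levels of single genes did not overlap in 37.2% of all tested genes in THX against Long and in 53.5% in Long against Short. An exact permutation test of 2 pools against 2 cannot go below p = 0.333.

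**Figure D3:**
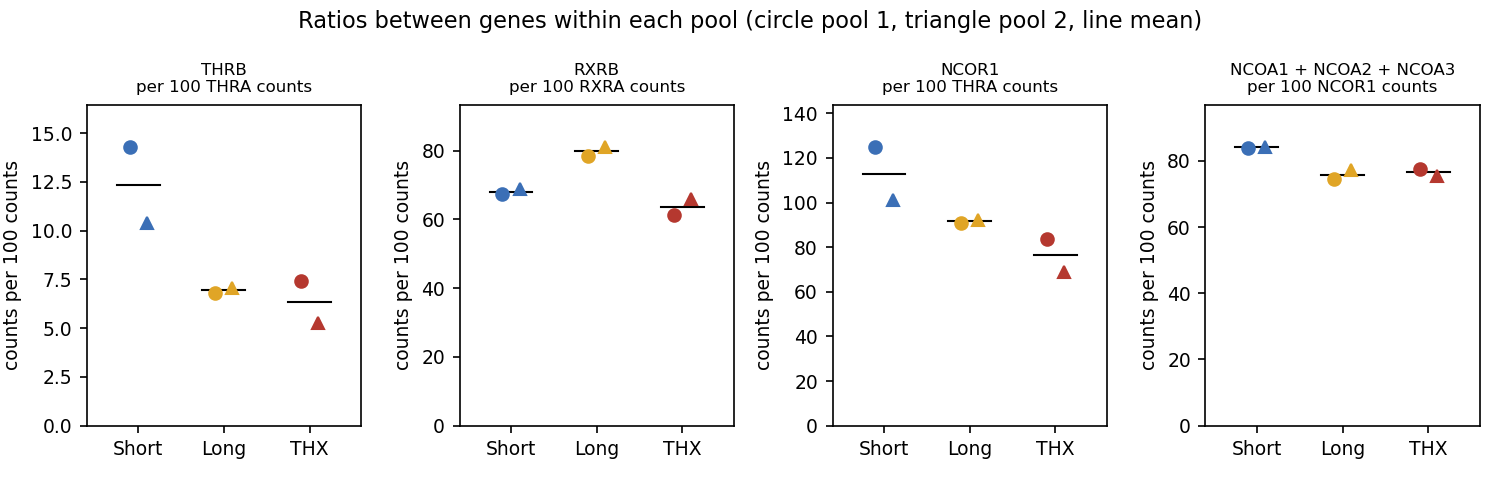
Counts of one gene, or of the 3 NCOA genes summed, for each 100 counts of another (vertical axes, from 0) in the 2 pools of each group, with a line at the mean. THRB to THRA, NCOR1 to THRA and NCOA to NCOR1 are highest in both Short pools, and RXRB to RXRA is highest in both Long pools.

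THRB, NCOR1 and the 3 NCOA genes varied together over the pools. Their pairwise Pearson correlations of log2 CPM over the 6 pools ran from 0.898, between NCOA2 and NCOA3, to 0.986, between THRB and NCOA2. RXRB ran opposite to them, at −0.994 with NCOA1 and −0.918 with NCOA2, while THRA and RXRA followed each other at 0.897. These points share their library, depth and composition. The levels of NCOA3, NCOA1 and NCOR1 had correlations of −0.984, −0.955 and −0.951 with the first principal component of all tested genes over the 6 pools, THRB one of −0.899 and RXRB one of 0.924. THRA, at 0.863, and NCOA2, at −0.825, followed that component less closely, and RXRA, at 0.58, and RXRG, at 0.13, least of the 9. Of all tested genes, 0.844% had a larger absolute correlation than NCOA3, 14.7% than THRB, 20.5% than THRA and 26% than NCOA2. Genes of the cytosolic ribosomal proteins, chosen here by symbol with earlier results known, ran opposite to THRB and the coactivators. The 75 tested had a summed level of 33000 and 37200 CPM in Short pools, 45100 and 43900 CPM in Long pools and 44600 and 53000 CPM in THX pools. Their median log2 difference of Long to Short was 0.35, with 74 of 75 above 0. Transcripts of ribosomal proteins are short, and no transcript lengths were at hand. The part of transcript length, RNA quality and library composition in the higher Short levels of THRB, NCOR1 and the NCOA genes was not tested.

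**Figure D4:**
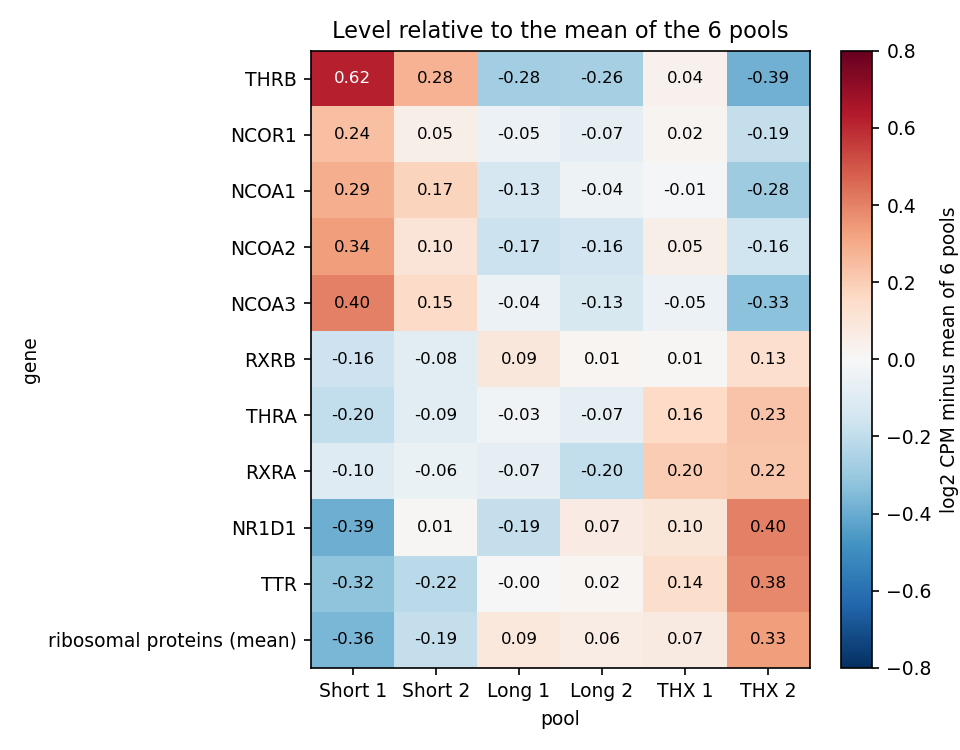
log2 CPM of each gene in each pool minus its mean over the 6 pools (colour and printed value), with NR1D1, TTR and the mean of 75 ribosomal protein genes below. The top 5 rows are highest in Short pool 1 and, except NCOA2, lowest in THX pool 2, and the ribosomal protein row runs the other way, from −0.36 to 0.33.

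Leaving out 1 pool at a time showed which pools the differences rest on. In Long against Short, the log2 difference of THRB ran from −0.89 to −0.54, that of NCOA1 from −0.37 to −0.26, that of NCOA2 from −0.50 to −0.27, that of NCOA3 from −0.48 to −0.24 and that of NCOR1 from −0.29 to −0.10. These 5 stayed below 0 in each of the 6 fits, and each lay nearest 0 without Short pool 1. In THX against Short, NCOR1 lay at −0.23 with all pools and at −0.12 without Short pool 1 or without THX pool 2. In THX against Long, RXRA ran from 0.29 to 0.41 and THRA from 0.21 to 0.28, above 0 in each of the 6. THRB in that comparison ran from −0.12 without THX pool 1 to 0.31 without THX pool 2, so its direction differed with the THX pool kept. In THX against Short, THRB and NCOA1 passed by edgeR without THX pool 1 (log2 difference −0.85 and −0.52, adjusted p = 0.048 and 0.0446), a fit in which 1083 genes passed in place of 165. In that fit THX has 1 pool, which is assumed to vary like the pools of the other groups.

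**Figure D5:**
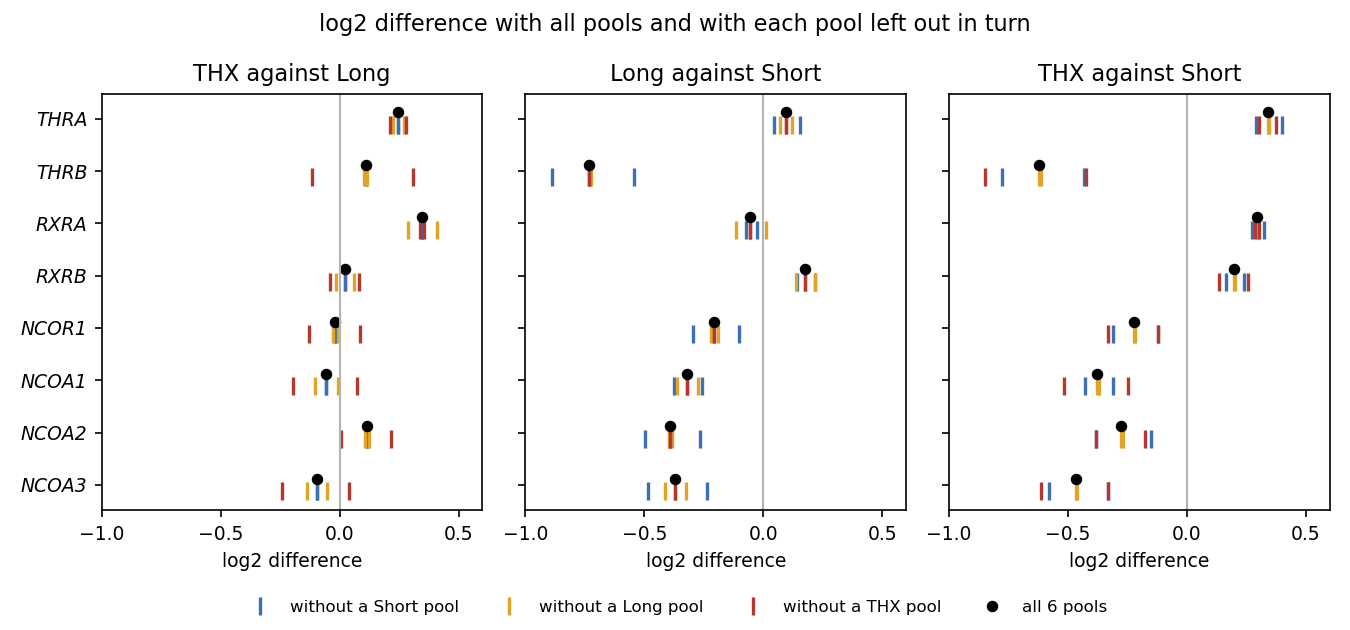
log2 difference (horizontal axes) of 8 genes with all 6 pools (points) and with each pool left out in turn (ticks, coloured by the group of the pool left out). THRB, NCOR1 and the NCOA genes lie below 0 in both comparisons with Short. In THX against Long they lie between −0.24 and 0.31, each on either side of 0 except NCOA2.

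Other genes of the receptor's machinery were counted from lists put together by role. Of 19 other corepressor genes, 1 fell and none rose in THX against Long: HR, a corepressor that is itself a receptor target, at a log2 difference of −2.94 (SE 0.122, adjusted p = 0.000835), beside 0.283% of all tested genes called. CORO2A, a component of the NCOR1 complex, was at 3.64 ± 0.377 (SD, n = 2) CPM in THX and 7.27 ± 0.52 CPM in Long pools (log2 difference −0.998, adjusted p = 0.148 by edgeR). HDAC3, TBL1X, TBL1XR1 and GPS2, of the same complex, did not pass in any comparison. In Long against Short none of the 19 passed, and HDAC4, LCOR and NRIP1 lay at log2 differences of −0.67, −0.41 and −0.38 (adjusted p = 0.342, 0.342 and 0.357), in the same direction as NCOR1. HDAC3 and GPS2 lay the other way, at 0.109 and 0.132, while TBL1X and TBL1XR1 lay at −0.057 and −0.231. The list's median was −0.11, with 13 of 19 below 0, where 50.3% of all tested genes were.

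Of 19 other coactivator genes none passed in any comparison. The acetyltransferases EP300 and CREBBP, which the p160 proteins recruit, lay at log2 differences of −0.34 and −0.31 in Long against Short (adjusted p = 0.349 and 0.342), beside −0.32 for NCOA1. In that comparison 14 of the 19 lay below 0, with a median of −0.10, where 50.3% of all tested genes lay below 0. The 5 above 0 included PRMT1 and CARM1, at 0.17 and 0.064. PPARGC1B, a coactivator of mitochondrial genes, was at 4.85 ± 0.109 (SD, n = 2) CPM in THX, 10.6 ± 2.64 CPM in Short and 7.95 ± 1.76 CPM in Long pools, with a log2 difference of THX to Short of −1.14 (adjusted p = 0.0726 by edgeR). Of 32 Mediator genes none passed either. MED1, the subunit that contacts the hormone-bound receptor, had a log2 difference of −0.37 in Long against Short (SE 0.095, adjusted p = 0.342), the same direction as the p160 genes, while MED29 had one of 0.37 (SE 0.127, adjusted p = 0.342). The Mediator median was 0.01 in that comparison, with 17 of 32 above 0, where 49.7% of all tested genes were.

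RXR also pairs with other receptors, and 13 of 14 such partner genes were tested. None passed in any comparison. In THX against Long 12 of the 13 lay below 0, at a median of −0.12, where 49.7% of all tested genes did, whereas RXRA lay above 0. The vitamin D receptor VDR was at 70 ± 6.98 CPM in THX and 78.7 ± 0.763 CPM in Long pools (SD, n = 2, log2 difference −0.17, adjusted p = 0.66 by edgeR). NR1H3, an oxysterol receptor, had a log2 difference of 0.28 in Long against Short (adjusted p = 0.342), and PPARA, a fatty acid receptor, one of −0.24 (adjusted p = 0.342). Of 24 other nuclear receptors tested, NR1D2, a clock repressor, fell in THX against Short pools, from 101 ± 2.35 to 73.3 ± 2.96 CPM (SD, n = 2, log2 difference −0.46, SE 0.0722, adjusted p = 0.045 by edgeR), where 0.916% of all tested genes were called. No other receptor of that list passed in any comparison.

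The list of hormone carriage, transport and metabolism named 12 genes, and the 12 rows tested for it gave no call. SECISBP2 was tested under separate identifiers, so these rows do not cover every gene listed. DIO1 and DIO2 were among the rows, and none was for DIO3. SLC7A5, an amino acid transporter that also carries thyroid hormone, was at 50.5 ± 10.2 CPM in THX and 33.4 ± 1.33 CPM in Long pools (SD, n = 2, log2 difference 0.60, adjusted p = 0.288 by edgeR). TTR had a log2 difference of 0.26 in THX against Long and of 0.54 in THX against Short (SE 0.095 for each, adjusted p = 0.473 and 0.058), with its groups in the same order as those of THRA.

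Genes whose levels were most like those of THRB were sought among 12293 others with a symbol and a mean of at least 2 CPM. ICMT, KIAA1328 and PRKX had the highest Pearson correlations of log2 CPM with THRB over the 6 pools, from 0.9979 to 0.9995, and IMP3, PSMA6 and PPM1M the lowest. Of the candidates 10.2% had a correlation above 0.9 with THRB, so levels that followed those of THRB over the pools were common. For RXRA 1.36% of the candidates had a correlation above 0.9, led by HCN4, CDK5RAP2 and FAAP100 from 0.9878 to 0.9908, with THTPA, ABHD3 and C1QTNF1 at the opposite end. HCN4 was at 2.35 CPM in Short, 2 CPM in Long and 6.04 CPM in THX pools on average, and C1QTNF1 at 73.3, 73.6 and 41 CPM.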

How the data were processed

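PolyA RNA of the choroid plexus was sequenced in 6 pools, made of equal amounts of RNA from each ewe, with a stranded library kit per the labels. The authors deposited 1 table of counts, whole numbers per gene and pool, with no normalisation. The submitters' processing notes name featureCounts 2.0.0 and TopHat2 2.1.1, with SAMtools 1.9, bcl2fastq 2.20, MultiQC 1.9 and FastQC 0.11.8. For the genome build, annotation and strand setting nothing was given in the sources used here.

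Genes were filtered by the default of edgeR 4.0.16 (R 4.3.3), scaled by TMM and fitted by its quasi-likelihood model with 1 mean per group over all 6 pools, leaving 3 residual and 3.96 prior degrees of freedom. Two-sided p-values were adjusted over 18019 genes by the Benjamini-Hochberg method, with a threshold of 0.05, and measure the spread between pools, not ewes. Within groups the pools differed by 15.8 to 70.1 times the variance of counting alone. SE and 95% intervals come from the same fit. The fit was tested on simulated data. DESeq2 1.42.0 and limma 3.58.1 (voom) were alternatives. Log2 CPM for correlations used a prior count of 2. Names came from the file and, for 471 identifiers, from the ARS-UI_Ramb_v3.0 gene table. The members and lists were chosen with earlier results of these data known. Named were all members, HR, KLF9, NR1D1, TTR, up to 3 genes of lowest p per list and comparison, and the genes most like THRB and RXRA.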

Additional observations from a re-analysis of the deposited data

How the results depend on the processing

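The number of all genes called moved with the processing. In THX against Long 51 genes passed, and 204 did with no filter on low counts, 22 with only the 4 pools compared and 448 by DESeq2. With 1 pool left out, 2 to 37 passed. In Long against Short 0 passed, 159 did by DESeq2, and 0 to 4 with 1 pool left out. In THX against Short 165 passed, and 259 did with library totals only, 908 with no filter, 250 with a robust spread estimate, 11 with only the 4 pools compared, 1761 by DESeq2 and 10 to 1083 with 1 pool left out. Of the 9 receptor and coregulator genes, DESeq2 called 1, 1 and 5 in these comparisons. The fit with no filter called 1 in THX against Short (THRA, adjusted p = 0.0491), and 0 to 2 passed there with 1 pool left out. The cause of these moves was not tested.

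A replicate block for the pool number gave 48, 0 and 392 calls over all genes and 0 among the 9 in the 3 comparisons. The labels share only a number between groups: deviations of same-numbered pools correlated at −0.06, 0.21 and 0.07, so they were not treated as pairs.

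Over the alternatives a direction changed for RXRB in THX against Long (−0.028 with library totals only, and −0.041 to 0.082 with 1 pool left out). With 1 pool left out it changed in that comparison for THRB (−0.12 to 0.31), NCOR1 (−0.13 to 0.084), NCOA1 (−0.20 to 0.072) and NCOA3 (−0.24 to 0.039), and in Long against Short for RXRA (−0.12 to 0.01). The other alternatives run kept the direction of each gene tested in them (8 with a mean CPM of at least 5, which leaves out RXRG). The median of all genes in THX against Short was −0.107 with library totals only and −0.008 with TMM. An offset for protein length was not run, since no lengths were at hand, so the part of length in these differences was not tested. Depth limits RXRG, at 4 to 34 counts per pool, and DESeq2 gave it no adjusted p in the comparisons with Short.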
